A study of Mus musculus with 102 samples.

Results

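The genes described here are 10 that microglia, the resident macrophages of the brain, are known to raise when they become activated. They are Clec7a, Itgax, Gpnmb, Cst7, Lyz2, Trem2, Tyrobp, Axl, Cd68 and Apoe, taken by gene symbol from a brain expression table of 51810 gene rows, and each symbol was found once. The same rows in both spleen tables of the study served as a contrast. The study sequenced RNA from whole brain and spleen of 45 male mice, labelled WT and BL6J (C57BL/6J), at 6 ages. The 3-month and 20-month groups held 7 animals each, the 5-month and 14-month groups 9 each, the 8-month group 8 and the 26-month group 5, and every animal gave both tissues. A separate table held spleen of 12 further male mice labelled WT or mTOR, 3 of each genotype at 5 months (young) and 3 of each at 21 or 23 months (old). Their titles also carry BL6J, and the labels do not describe the mTOR allele.

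Microglia sense lipids, dying cells and damaged myelin through the surface receptor TREM2, which signals through the adapter protein TYROBP (also called DAP12). In ageing and in models of neurodegeneration, a subset of microglia lowers its resting-state genes and raises a set that includes Clec7a, Itgax, Cst7, Gpnmb, Axl and Apoe, a state known as disease-associated microglia. Several of these genes are not particular to microglia: Apoe is made mainly by astrocytes in the healthy brain, and macrophages and dendritic cells of the spleen express most of the others. In RNA from whole tissue, fewer cells of a type and less RNA per cell cannot be told apart.

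Levels are normalized read counts, the number of reads in a gene divided by a size factor of the library, given as mean ± SD over n animals. Libraries held 4072076 to 13655235 reads in genes for brain, 3031246 to 11702988 for ageing spleen and 7733716 to 14112504 for the mTOR table. In brain, 2 pairs of libraries of the same age differed by less than read sampling allows, so the mean of each pair stands for 1 sample. This leaves 43 brain samples, with 8 at 5 months and 7 at 8 months. Of the markers of resting microglia, P2ry12 and P2ry13 are listed at 0 in every library of both tissues, as is the ubiquitous gene B2m. Tmem119 and Cx3cr1, the next on that list, were present in every brain sample, at 73.9 ± 25.5 and 326 ± 65.4 at 3 months (n = 7). Differences are log2 changes from limma on log2(value + 1), which understates the change of genes with few reads, and a gene is called when its p, adjusted over all tested genes, is under 0.05. A gene was tested if at least 5 libraries reached a value of 10 (3 in the mTOR table). In brain, 9 of the 10 genes were tested and Cst7 was not, with 4 libraries at that level. Clec7a, with 9 such libraries, reached it only at 20 and 26 months, and Itgax, with 7, only at 14, 20 and 26 months, so these genes entered the test through the groups in which they are high.

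Because 5 of the genes, Clec7a, Itgax, Gpnmb, Cst7 and Lyz2, were higher at 26 than at 3 months in the values below, the sequence just upstream of their start sites is shown (RefSeq, build GRCm38.p6, read 5′ to 3′ on the gene's strand, without bases of annotated exons). Motif matches are in capitals: GGAAGT, the core letters read by ETS factors such as PU.1 of myeloid cells, and TGANTCA, the letters read by AP-1, each on either strand. The windows lie at chr6:129472780-129473029 (minus strand) for Clec7a, chr7:128129300-128129546 (plus) for Itgax, chr6:49036268-49036517 (plus) for Gpnmb, chr2:150570165-150570414 (plus) for Cst7 and chr10:117282322-117282522 (minus) for Lyz2.
Clec7a: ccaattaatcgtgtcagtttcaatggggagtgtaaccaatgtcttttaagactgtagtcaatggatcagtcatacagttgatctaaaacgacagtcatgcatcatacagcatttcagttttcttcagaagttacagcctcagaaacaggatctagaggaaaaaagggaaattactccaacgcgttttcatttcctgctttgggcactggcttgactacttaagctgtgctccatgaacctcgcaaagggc
Itgax: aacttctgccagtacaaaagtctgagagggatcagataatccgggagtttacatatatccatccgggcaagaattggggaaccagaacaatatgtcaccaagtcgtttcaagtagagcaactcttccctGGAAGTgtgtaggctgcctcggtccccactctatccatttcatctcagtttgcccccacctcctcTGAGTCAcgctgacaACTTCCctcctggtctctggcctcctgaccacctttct
Gpnmb: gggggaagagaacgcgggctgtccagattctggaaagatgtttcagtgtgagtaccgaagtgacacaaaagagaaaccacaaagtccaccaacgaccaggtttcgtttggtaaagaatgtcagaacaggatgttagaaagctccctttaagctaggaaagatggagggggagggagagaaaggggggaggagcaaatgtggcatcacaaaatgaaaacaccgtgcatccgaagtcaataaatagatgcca
Cst7: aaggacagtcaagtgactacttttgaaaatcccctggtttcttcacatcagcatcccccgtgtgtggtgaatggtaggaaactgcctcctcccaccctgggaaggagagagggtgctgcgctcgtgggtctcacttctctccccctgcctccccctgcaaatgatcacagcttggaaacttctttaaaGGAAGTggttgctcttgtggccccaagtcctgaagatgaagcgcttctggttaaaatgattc
Lyz2: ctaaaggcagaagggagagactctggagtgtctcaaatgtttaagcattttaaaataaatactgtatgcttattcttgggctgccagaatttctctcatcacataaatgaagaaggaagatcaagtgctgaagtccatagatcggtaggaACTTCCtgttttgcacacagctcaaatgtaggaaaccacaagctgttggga
The Itgax window holds the ETS letters at -121 and -41 and the AP-1 letters at -56, counted from the RefSeq start. The windows of Cst7 and Lyz2 hold the ETS letters at -62 and -100. None of the 4 motifs searched, which also included CACGTG (the E-box) and CATGTG (the M-box core, read by MITF and TFE factors), was found in the windows of Clec7a and Gpnmb. Of 32851 RefSeq windows of 250 bases, 19.7% hold GGAAGT, 6.75% TGANTCA, 6.02% CACGTG and 12.3% CATGTG. Among the others, Cd68 has AP-1 letters at -149 and -24, Trem2 at -9, and Axl and Apoe have none of the 4. Tyrobp was not matched.

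Among the receptors, Clec7a rose in the old brain. It encodes Dectin-1, a C-type lectin that binds fungal glucans, on chromosome 6 (129461591 to 129472779, minus strand, GRCm38), where GENCODE M21 annotates it as a polymorphic pseudogene. At 3 months its values ran from 0 through a median of 2.43 to 5.02. At 20 months they ran from 5.54 through 10.2 to 14.0, and the 5 brains at 26 months had 72.0, 28.0, 18.5, 35.6 and 18.5. Every 26-month brain lay above every brain of the younger ages. Means were 2.53 ± 1.88 at 3 months (n = 7), 2.04 ± 1.90 at 5 (n = 8), 3.38 ± 2.16 at 8 (n = 7), 4.73 ± 3.75 at 14 (n = 9), 9.28 ± 2.95 at 20 (n = 7) and 34.5 ± 22.1 at 26 (n = 5). The values up to 14 months do not differ beyond their spread. The log2 change from 3 to 26 months was 3.36 (SE 0.50, adjusted p = 3.6e-05, limma). At 20 months its values did not overlap those at 3 months either, which held for 0.231% of tested genes. Clec7a entered the test only through the older groups, so that share cannot be used to weigh it. The change of 1.71 was not called (adjusted p = 0.11, limma).

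Trem2 and Tyrobp, the sensing receptor and its adapter, did not pass the test between 3 and 26 months. Trem2 (chromosome 17, 48346401 to 48354147, plus strand) ran from 15.0 through 23.0 to 44.2 at 3 months, and stood at 38.4, 41.5, 16.6, 37.2 and 27.3 in the 26-month brains. The groups overlap throughout, with a log2 change of 0.35 (95% interval -0.25 to 0.95, adjusted p = 0.74). Its means were 25.1 ± 9.46 at 3 months (n = 7), 22.5 ± 6.90 at 20 (n = 7) and 32.2 ± 10.2 at 26 (n = 5), and between 19.2 ± 5.62 and 23.8 ± 8.30 at the ages between 3 and 20. Tyrobp (chromosome 7, 30413760 to 30417585, plus strand) ran from 5.21 through 13.4 to 16.3 at 3 months. At 26 months it had 49.6, 21.9, 15.6, 23.0 and 17.7, so that 1 old brain lay within the young range. The log2 change was 1.00 (95% interval 0.38 to 1.61, adjusted p = 0.14). Over all 43 samples Tyrobp rose by 0.04 log2 units per month of age (adjusted p = 0.014).

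Axl, a receptor tyrosine kinase of the TAM family that helps macrophages take up dying cells, lies on chromosome 7 (25757273 to 25788705, minus strand). In brain it ran from 207 through 232 to 252 at 3 months, and had 298, 267, 225, 298 and 285 at 26 months. One old brain lay inside the young range and the other 4 above it. The means were 232 ± 14.2 (n = 7) and 275 ± 30.5 (n = 5), a log2 change of 0.24 (95% interval 0.05 to 0.43, adjusted p = 0.34) that was not called.

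Itgax, which encodes the integrin chain CD11c, had the largest fitted change of the 9 tested genes. It lies on chromosome 7 (128129547 to 128150657, plus strand). At 3 months it ran from 0 through 1.92 to 4.06, at 20 months from 4.05 through 8.28 to 12.6, and the 26-month brains had 44.8, 21.9, 14.6, 26.7 and 17.7. All 5 lay above every brain at 3, 5, 8 and 20 months, while 1 brain at 14 months reached 21.8. The highest brain at 5 months had 4.01 and at 8 months 5.93. Means were 1.41 ± 1.52 at 3 months (n = 7), 4.63 ± 6.65 at 14 (n = 9), 7.93 ± 2.80 at 20 (n = 7) and 25.2 ± 11.9 at 26 (n = 5). The log2 change was 3.60 at 26 months (SE 0.54, adjusted p = 3.9e-05, limma) and 2.09 at 20 months (adjusted p = 0.051), the second just outside the threshold.

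Gpnmb, a glycoprotein of lysosomes and phagosomes on chromosome 6 (49036546 to 49070929, plus strand), also rose. It ran from 15.6 through 28.4 to 38.3 at 3 months and from 34.0 through 48.0 to 78.4 at 20 months. At 26 months the brains had 89.6, 79.2, 59.4, 83.8 and 72.4, all above those at 3, 5, 8 and 14 months. The mean went from 28.0 ± 7.03 (n = 7) through 52.0 ± 15.8 (n = 7) to 76.9 ± 11.6 (n = 5). The change was 0.86 at 20 months (adjusted p = 0.0086) and 1.45 at 26 months (SE 0.18, adjusted p = 1.2e-06, limma), with the smallest p of the tested genes of this set.

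Lyz2, lysozyme of macrophages and neutrophils, lies on chromosome 10 (117277331 to 117282321, minus strand). It ran from 6.31 through 11.1 to 27.8 at 3 months and from 25.2 through 34.8 to 50.7 at 20 months. The 26-month brains had 89.6, 37.8, 29.2, 60.7 and 44.2. All 5 lay above the 3-month range, but 1 brain at 8 months reached 44.5 and 1 at 14 months 30.6. The log2 change was 1.52 at 20 months (adjusted p = 0.0068) and 1.92 at 26 months (SE 0.32, adjusted p = 0.00026, limma). Its near-identical neighbour Lyz1, with which reads could be shared, had 0.485 ± 0.931 at 3 months (n = 7) and 0.425 ± 0.695 at 26 months (n = 5).

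Cst7, cystatin F, an inhibitor of lysosomal cysteine proteases, lies on chromosome 2 (150570415 to 150578944, plus strand) and had few reads in brain, 162 over the 45 libraries, with 11 libraries at 0. It ran from 0 through 0 to 1.62 at 3 months and from 0.786 through 7.39 to 11.7 at 20 months. The 26-month brains had 38.4, 10.97, 2.92, 11.5 and 8.85, all above the 3-month range. Means were 0.506 ± 0.668 (n = 7), 6.22 ± 3.90 (n = 7) and 14.5 ± 13.8 (n = 5). An exact 2-sided permutation test of its mean log2(value + 1) gave p = 0.0025 for 26 against 3 months, which is the smallest p these groups allow, and p = 0.0023 for 20 against 3 months. Without the filter on low values the fitted log2 change at 26 months was 3.08 (limma adjusted p = 0.00083).

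Cd68, a lysosomal glycoprotein used as a stain for phagocytic microglia, lies on chromosome 11 (69664213 to 69666153, minus strand). It ran from 15.8 through 26.0 to 41.5 at 3 months and had 76.8, 54.9, 16.6, 42.9 and 41.0 at 26 months. The groups overlap, since 2 of the old brains lay inside the young range. The log2 change of 0.70 (95% interval 0.04 to 1.35) did not pass (adjusted p = 0.46).

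Apoe, the main lipid carrier of the brain, on chromosome 7 (19696109 to 19699188, minus strand), was the most abundant of the 10. Its mean was 5129.8 ± 702 at 3 months (n = 7), 5612 ± 1568 at 14 (n = 9), 5703 ± 652 at 20 (n = 7) and 5203 ± 1168 at 26 (n = 5). The 26-month brains had 5364, 4773, 3432, 6334 and 6112 against 4233 to 5969 at 3 months, so the old range spans the young one. The log2 change was -0.00 with a 95% interval of -0.30 to 0.30 (adjusted p = 1.0). Its sign was positive with equal library totals and negative, at -0.62, relative to the pan-myeloid genes described below.

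**Figure D1:**
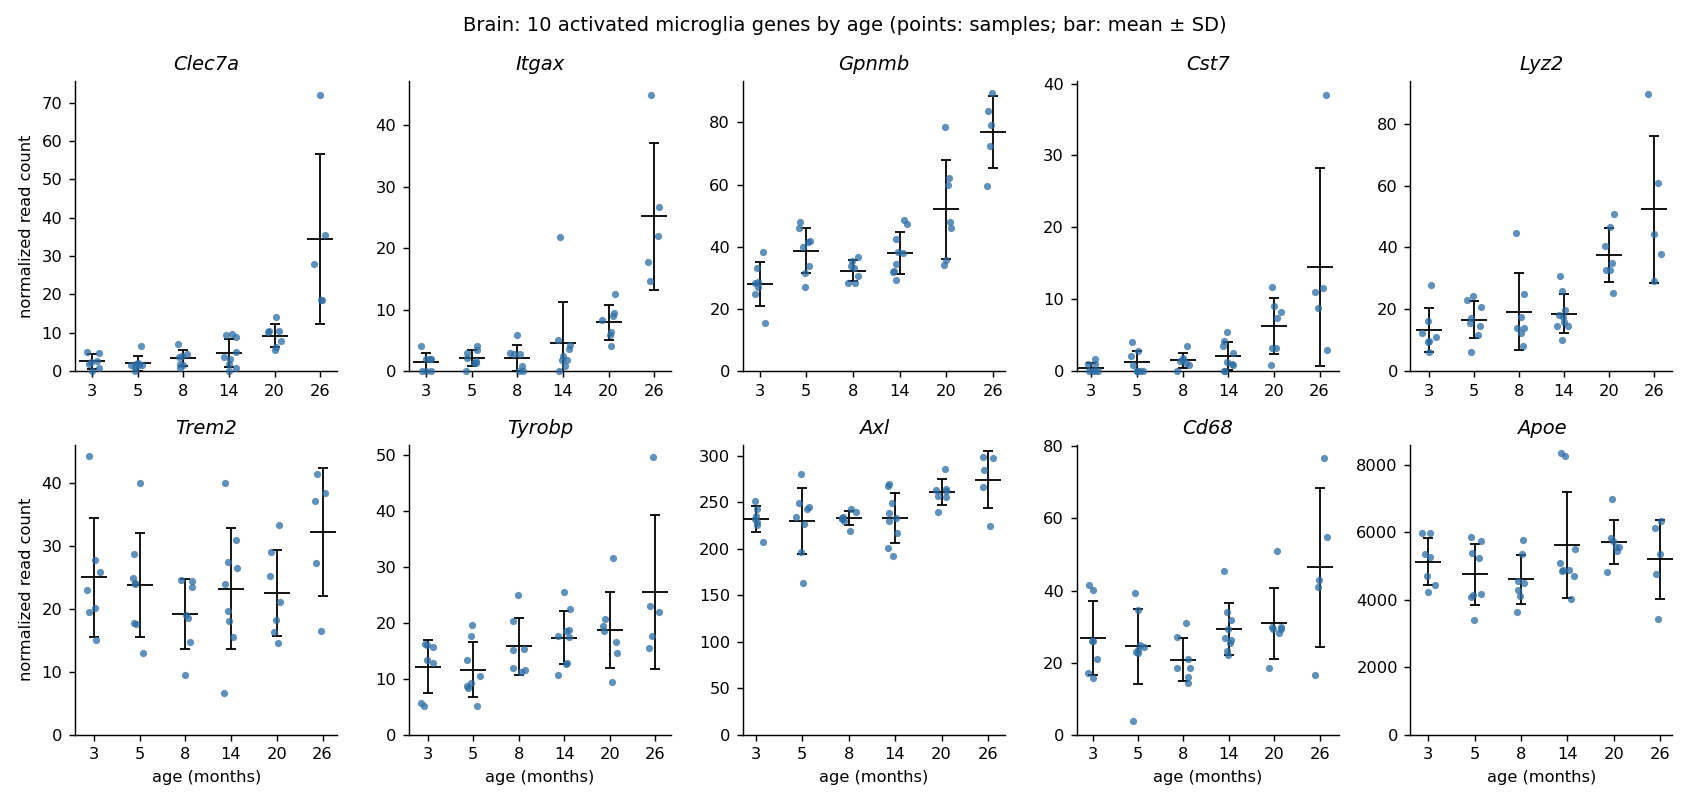
Normalized read count of each of the 10 genes in the brain (linear axis from 0) against age in months, 1 point per sample and bars for mean ± SD. Clec7a, Itgax, Gpnmb and Lyz2 are mostly low up to 14 months and highest at 26, with Clec7a between 18.5 and 72.0 there, while Apoe, Axl and Trem2 overlap between all ages.

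In all, 4 of the 9 tested genes were called higher at 26 than at 3 months and none lower, where 0.662% of all 15566 tested genes were called, 0.572% higher and 0.0899% lower. Their median log2 change was 1.00, beside -0.01 for all tested genes. The 4, Clec7a, Itgax, Gpnmb and Lyz2, were also those with every 26-month brain above every 3-month brain, which held for 0.822% of tested genes, while 0.231% had every old brain below every young one. Clec7a and Itgax entered the test only through older groups. For them neither calls nor lack of overlap can be weighed against such shares, at any ages or in the comparison with spleen. The median includes them. Gpnmb and Lyz2 reached a value of 10 at 3 months too, in 7 and 4 libraries. At 20 against 3 months 2 of the 9 were called, Gpnmb and Lyz2, against a background of 0.173%. Gpnmb lost this call when only the 2 ages were fitted (adjusted p = 0.086), and Itgax gained one without replicate 6 at 3 months, at 2.32 (adjusted p = 0.026). The 2 ages share the 3-month brains.

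When the change appeared was read from the other pairs of ages. No gene of the whole brain table was called at 5, 8 or 14 against 3 months, nor at 26 against 20 (limma), where 496, 558, 661 and 604 genes had an unadjusted p under 0.05. The count tools were not run on these pairs. At 26 against 14 months, where 0.167% of genes were called, the same 4 were among them, with log2 changes of 2.81 for Clec7a (adjusted p = 0.00099), 2.67 for Itgax (0.0073), 1.00 for Gpnmb (0.0015) and 1.40 for Lyz2 (0.025). From 14 to 20 months their changes were 1.15, 1.17, 0.41 and 1.01, and from 20 to 26 months 1.65, 1.51, 0.60 and 0.39, none of them called, and 0.00642% of genes were called from 14 to 20 months. A test for any difference among the 6 ages called the same 4 (background 0.482%). A linear slope on age called them too, at 0.14 log2 units per month for Clec7a and Itgax, 0.05 for Gpnmb and 0.08 for Lyz2, together with Tyrobp (background 1.58%).

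Per kilobase of annotated exon, which allows genes to be compared, Apoe stood far above the rest in brain at 3 months, with 2399 ± 328 (n = 7), followed by Axl with 46.1 ± 2.82 and Cd68 with 21.4 ± 8.24. At the bottom were Clec7a with 0.960 ± 0.713, Cst7 with 0.513 ± 0.678 and Itgax with 0.294 ± 0.316, which do not differ beyond their spread. By 26 months Lyz2, at 39.8 ± 18.1 (n = 5), had moved from the fifth to the third place, beside Tyrobp at 38.3 ± 20.7 and Cd68 at 36.9 ± 17.5. Clec7a at 13.1 ± 8.40 and Cst7 at 14.7 ± 14.0 then stood with Gpnmb at 11.8 ± 1.79, all above Trem2 at 6.51 ± 2.06 in their means.

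The old brains differed among themselves. Replicate 1 at 26 months was the highest of the 5 for 7 of the 10 genes and replicate 3 the lowest for 9. Replicate 1 was also the shallowest library of its age, with 4594090 reads in genes, against 7746172 for replicate 3 and 13655235 for replicate 4. Without replicate 1 the changes from 3 to 26 months were 3.06 for Clec7a, 3.37 for Itgax, 1.39 for Gpnmb and 1.70 for Lyz2, all still called (adjusted p from 2.7e-05 to 0.0046, limma). The part of depth in the level of this brain was not tested beyond that.

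**Figure D2:**
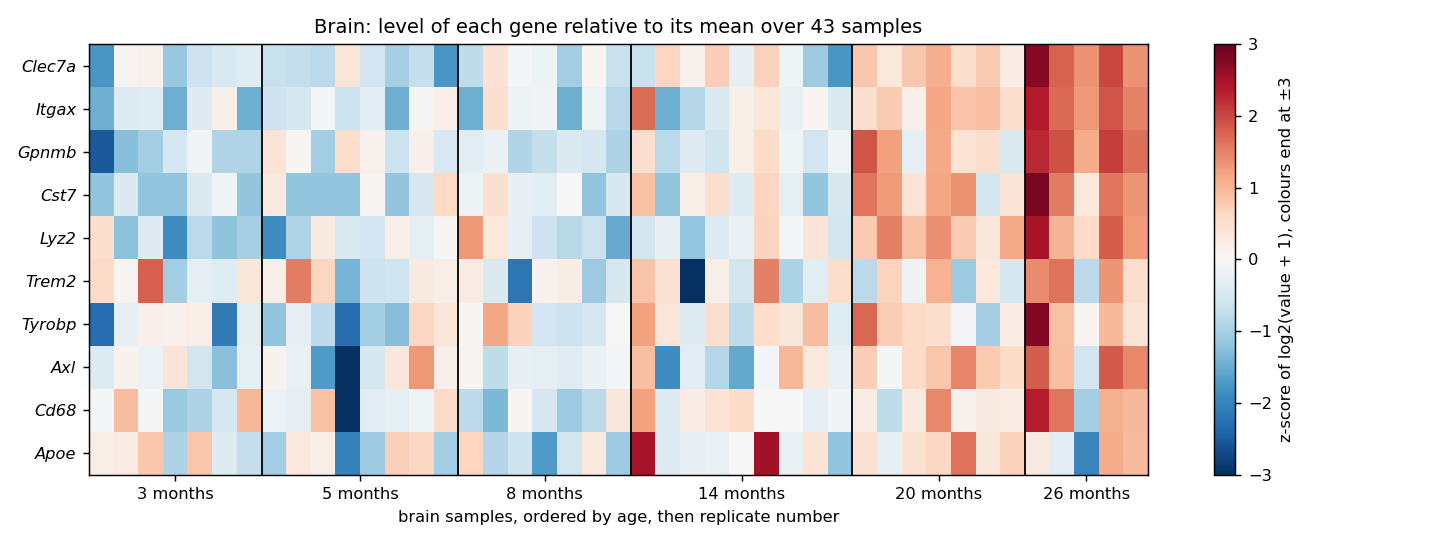
Level of each gene (rows) in each of the 43 brain samples (columns, by age and replicate), as the z-score of log2(value + 1) over samples, with red above and blue below the gene's mean. The rows of Clec7a, Itgax and Lyz2 are red throughout ages 20 and 26 and those of Gpnmb and Cst7 nearly so, with replicate 1 at 26 months the darkest, while Apoe is highest in 2 of the 14-month brains.

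Genes that work with these receptors changed in part. Of 16 partners of the receptors and integrin on a list set up for this comparison, 12 were tested and 3 called higher, with a list median of 0.30. Itgb2, the beta chain with which CD11c pairs, rose by 1.09 (adjusted p = 0.0075), with 22.6 ± 3.53 at 3 months (n = 7) and 50.1 ± 12.3 at 26 (n = 5). Cd33, a sialic acid receptor that restrains microglial uptake, rose by 0.71 (adjusted p = 0.0042), from 129 ± 32.4 to 208 ± 21.6. Pros1, protein S, a ligand of the TAM receptors, rose by 0.45 (adjusted p = 0.019).

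Of 26 other genes of the disease-associated state, 17 were tested and 3 were called higher (median 0.33). Ccl6, B2m and Hif1a of that list were at 0 in every brain library. Cybb, the catalytic chain of the phagocyte NADPH oxidase, rose by 1.79 (adjusted p = 0.0042), with 7.58 ± 3.49 at 3 months (n = 7) and 28.7 ± 12.9 at 26 (n = 5). Lgals3bp, a secreted galectin-binding protein, rose by 1.13 (adjusted p = 0.0088) and Csf1, the growth factor of microglia, by 0.52 (adjusted p = 0.028). None of 18 tested lysosome and phagosome genes was called (median 0.13), of which 4 had an unadjusted p under 0.05. Among 15 tested lipid carriers and receptors only Apod, a lipocalin, was called, at 0.70 (adjusted p = 0.0046, median of the list 0.10). None of 12 tested genes of the resting state was called (median 0.13, with 2 at an unadjusted p under 0.05), and Tmem119 and Cx3cr1 changed by 0.25 and 0.14 (adjusted p = 0.80 and 0.73).

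Markers shared by all myeloid cells moved with the 4 called genes. Of the 16 tested pan-myeloid genes, 5 were called higher and 16 had a change above 0 (median 0.59). These were Ptprc, the leukocyte antigen CD45, with a change of 1.22 (55.7 ± 9.76 to 132 ± 32.9, adjusted p = 9.7e-07), the complement genes C1qa at 0.87 and C1qb at 0.71, the protease Ctss at 0.73 and the Fc receptor Fcgr2b at 1.27. The first genes on the list, Aif1 and Itgam, changed by 0.31 and 0.48 without passing. Summed over the list, the level ran from 1421.5 to 2741 at 3 months and from 2624 to 3423 at 26 months. With the mean log2 level of this list subtracted from every gene of a library, which shifts the median of all genes to -0.62, the changes were 2.75 for Clec7a, 2.99 for Itgax, 0.84 for Gpnmb and 1.30 for Lyz2, each still above 0. Tyrobp then stood at 0.38 and Cd68 at 0.08, Trem2 and Axl turned to -0.26 and -0.38, and Apoe stood at -0.62.

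Markers of other immune cells were few. Of 11 border-associated macrophage genes 4 were tested and none called (median 0.37, with 1 at an unadjusted p under 0.05). Their summed level was 87.6 to 163 at 3 months and 122 to 247 at 26 months. At 20 against 3 months none of the 4 was called either, with a median of 0.63 and 2 at an unadjusted p under 0.05 (limma). These were F13a1 at 1.07 (adjusted p = 0.051) and Mrc1 at 0.96 (0.12), while Cd163 stood at 0.20 and Stab1 at 0.29. All 4 had a change above 0 at both ages. At 3 and 26 months Mrc1 stood at 20.7 ± 7.85 and 28.2 ± 9.91, and Lyve1 at 5.29 ± 3.37 and 5.51 ± 4.58. Of 10 monocyte and neutrophil genes 2 were tested, Ccr2 and Vcan, and none called. At 20 against 3 months neither was called, and 1 of the 2 had an unadjusted p under 0.05 (limma). Ccr2 changed by 1.17 there (adjusted p = 0.33) and Vcan by -0.12. The list had a summed level of 184 to 257 at 3 months and 185 to 268 at 26 months. Every untested gene of the list reached a value of 10 in fewer than 5 libraries. Ccr2 was low too, so the sum is mostly Vcan and does not show the level of monocytes. At 3 and 26 months Ly6c2, the defining monocyte gene of that list, was at 0.660 ± 1.06 and 0.977 ± 1.13. Ccr2 was at 5.99 ± 3.64 and 10.5 ± 4.36. The T and B cell list had 3 tested genes and none called, and Cd3e and Cd3d were near 0, at 0.634 ± 0.868 and 0.209 ± 0.468 at 26 months (n = 5). The part of these cells in the changes of Clec7a, Itgax, Gpnmb and Lyz2 was not tested.

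Lists of the other cell types of brain and of blood had no called gene at 26 against 3 months. Tested numbers were 9 for astrocytes, 8 each for neurons and oligodendrocytes, 7 for meningeal fibroblasts, 6 each for choroid plexus and endothelium, and 3 for erythroid cells. Gfap of the astrocyte list, Nefl (neurons), Kcnj13 (choroid plexus) and Alas2 (erythroid) were at 0 in every brain library, so their change could not be seen. An unadjusted p under 0.05 was seen for 1 astrocyte, 3 neuronal, 2 oligodendrocyte, 3 meningeal and 2 endothelial genes (limma). The astrocyte genes Aqp4 and Aldh1l1 changed by 0.30 and -0.03, the neuronal Rbfox3 and Snap25 by -0.19 and -0.05, and the myelin gene Mbp by 0.17. Choroid plexus Ttr and Kl changed by 0.42 and 0.41, meningeal Dcn and Lum by 0.25 and 0.34, and endothelial Cldn5 and Pecam1 by -0.06 and 0.36. The haemoglobin genes Hba-a1 and Hba-a2 changed by 1.09 and -0.54, and 1 brain at 26 months reached 62.2 for Hba-a1. Lists set up for the spleen had no called gene in brain either, though their genes need not be particular to spleen cells. Of the red pulp macrophage list 4 genes were tested, with Adgre1 at 0.69 (unadjusted p = 0.0046, adjusted p = 0.21, limma) and Vcam1 at 0.24. The dendritic cell list had 6 tested genes (Flt3 at 0.12, Zbtb46 at -0.12) and the cell cycle list 3 (Mki67 at 0.09, Top2a at -0.42). No granulocyte precursor gene reached the filter.

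In the spleen of the same animals none of the 9 tested genes was called at 26 or 20 against 3 months. At 3 months Lyz2 had 3359 ± 1112, Itgax 475 ± 86.0, Clec7a 255 ± 201 and Axl 824 ± 942 (n = 7), on a scale set separately from that of brain. Gpnmb had 47.2 ± 39.5 and Apoe 6721 ± 3789. Trem2 had 0.415 ± 0.843 and was not tested, with 2 libraries at a value of 10. At 26 against 3 months 0.369% of all 16243 tested genes were called, and 2 of the 9 had an unadjusted p under 0.05. At 20 against 3 months 10.7% of genes were called and 6 of the 9 had an unadjusted p under 0.05. Their median log2 changes were 0.58 and 0.80, beside -0.01 and 0.00 for all tested genes. Of simulated 2-fold changes at 26 against 3 months the test called 38% in spleen and 79% in brain. A lack of calls in spleen therefore does not show a lack of change.

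One young spleen stood apart. Replicate 5 at 3 months had 707 for Clec7a, 2948 for Axl, 705 for Cd68 and 15059 for Apoe, the highest of its age for each. It also had the lowest share of reads in the gene Malat1, 0.81%, against 1.19% to 1.92% in the others of its age. This spleen was singled out by its values for these same genes. Without it, Clec7a at 1.10 (adjusted p = 0.038), Axl at 1.40 (0.020) and Apoe at 1.02 (0.0059) were called higher at 20 against 3 months (limma). With that spleen in, 5.99% of all genes were called higher there. Apoe was also called at 26 against 3 months, at 0.96 (adjusted p = 0.047, limma), where 0.203% of all genes were called higher with that spleen in. Apoe was also called at 20 months, at 0.94 (adjusted p = 0.028), without replicate 2 at 20 months, together with Gpnmb at 1.40 (0.047), and without replicate 7 at 20 months, at 0.96 (0.024). Itgax was called lower at 20 months without replicate 4, 5 or 6 of that age, at -0.82, -0.81 and -0.84 (adjusted p = 0.032, 0.042 and 0.032), and 4.68% of all genes were called lower with all spleens in. Those spleens had the lowest Malat1 shares of that age, at 0.77%, 1.06% and 1.13%. Leaving out replicate 3 at 26 months made Cst7 the called gene at that age, at 0.97 (adjusted p = 0.035), beside the same 0.203% of genes called higher with all spleens in. The share of all genes called in the fits with a spleen left out is not given, so these calls cannot be weighed against a background.

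At 14 against 3 months no member was called in spleen (0.320% of genes were, with 0.00616% lower), and Gpnmb stood at 1.58 (adjusted p = 0.088). Spleen Apoe had means of 6721 ± 3789 at 3 months (n = 7), 5447 ± 1187 at 5 (n = 9), 5895 ± 1973 at 8 (n = 8), 10763 ± 4112 at 14 (n = 9), 11509 ± 4585 at 20 (n = 7) and 10648 ± 3466 at 26 (n = 5). The 3 youngest ages lie together, and so do the 3 oldest. At 14 against 5 and 8 months, where 3.45% of genes were called, Apoe was higher by 0.87 (adjusted p = 0.015) and Lyz2 by 0.73 (0.022). In the test over all 6 ages (background 14.6%) Apoe and Lyz2 were called, with adjusted p of 0.0034 and 0.024. The slope on age called 5 of the 9, where 21.3% of all genes were called: Apoe, Clec7a and Axl at 0.05, Cd68 at 0.06 and Cst7 at 0.03 log2 units per month.

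Trem2 in spleen was at 0 in most young animals and higher in some old ones. Its median was 0 at 3, 5 and 8 months and 0.676 at 14 months. At 20 months it ran from 0 through 7.20 to 15.4, and the 26-month spleens had 3.51, 0.895, 0, 0.743 and 42.5. An exact 2-sided permutation test gave p = 0.0052 for 20 against 3 months and p = 0.073 for 26 against 3 months.

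**Figure D3:**
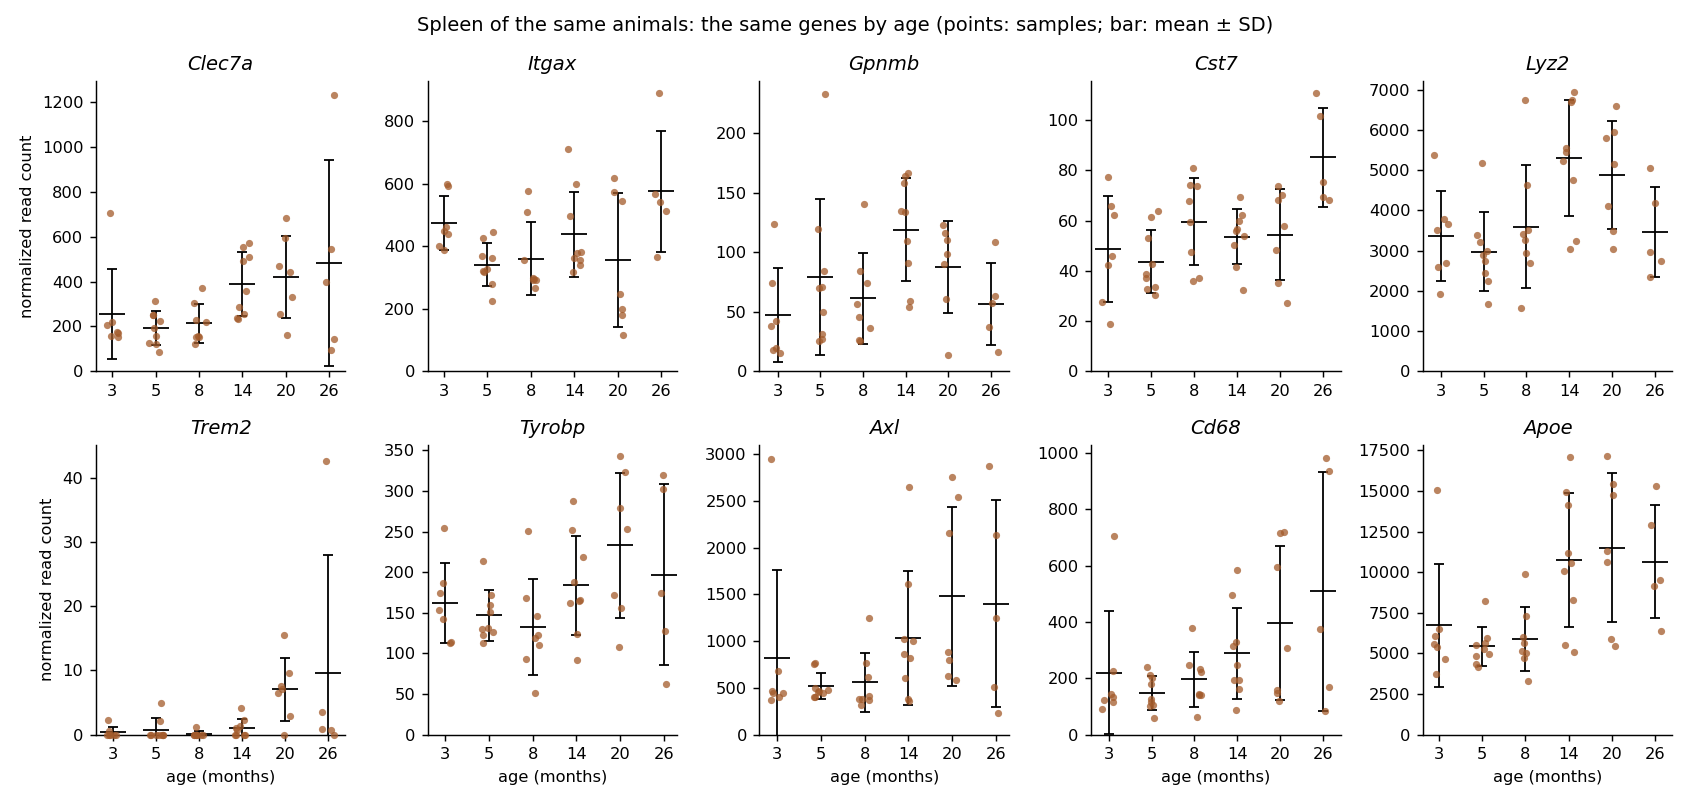
Normalized read count of each gene in the spleens of the same animals against age in months, 1 point per animal and bars for mean ± SD. Ages overlap for most genes, and 1 spleen at 3 months stands above the rest of its age for Clec7a, Axl and Apoe, at 707, 2948 and 15059.

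The old animals can be followed across both tissues. In the 26-month spleens, in the order of the brains above, Clec7a had 545, 142, 93.3, 397 and 1235 and Axl had 2140.2, 516, 228, 1248 and 2869. The animal of replicate 5, highest in spleen for both, was among the lower brains for Clec7a, while the other 4 animals had the same order for Clec7a in brain and spleen. With 5 animals no relation between the tissues was tested. The gene Malat1 took 0.86%, 1.45%, 3.04%, 1.09% and 0.58% of the reads in genes of these spleens, in the same order. That is the reverse of their ranking for both Clec7a and Axl. The part of this difference between libraries in the spleen values was not tested.

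Markers of other cells moved in the spleen too. At 20 against 3 months 7 of 7 tested granulocyte precursor genes and 7 of 10 monocyte and neutrophil genes were called higher, and 6 of 10 T and B cell genes lower. Red pulp macrophage genes had 2 of 8 called higher at 20 months and 1 of 8 at 26 months. The part of these cells in the spleen values was not tested.

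Whether the age change differed between tissues was tested within animals, on log2 brain minus log2 spleen, in 13682 genes and 41 animals, leaving out the 4 animals of the near-identical brain pairs. At 26 against 3 months the brain change exceeded the spleen change by 3.37 for Itgax (SE 0.60, adjusted p = 0.0042), 1.87 for Lyz2 (SE 0.36, adjusted p = 0.013) and 2.78 for Clec7a (SE 0.68, adjusted p = 0.043, limma), where 0.519% of genes were called. Gpnmb, at 1.07, was not called (adjusted p = 0.28). Axl, Cd68 and Apoe leaned the other way, at -0.47, -0.33 and -0.74, and were not called either. At 20 against 3 months, with 4.99% of genes called, only Itgax was, at 2.75 (adjusted p = 0.0030), and its spleen value was itself lower by 0.66 (adjusted p = 0.090). Without the 26-month animal 1, only Itgax kept its call at 26 months, at 3.15 (adjusted p = 0.032), with Clec7a at 2.66 (0.25) and Lyz2 at 1.61 (0.12). Clec7a also lost its call without 26-month animal 2, at 2.51 (adjusted p = 0.15), and without 3-month animal 1, 2, 3, 4, 6 or 7, at 2.51 to 3.03 (adjusted p from 0.056 to 0.085). Over the 12 animals left out in turn, Itgax kept its call in 12 cases, Lyz2 in 11 and Clec7a in 4. Without 3-month animal 5, Apoe was called at 20 months, at -0.82 (adjusted p = 0.044). Without animals that had a library under 5000000 reads, none was called, and Itgax stood at 2.97 (adjusted p = 0.082). Clec7a at 26 months was called in 0 of the 2 alternative settings, at 1.33 to 1.98.

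**Figure D4:**
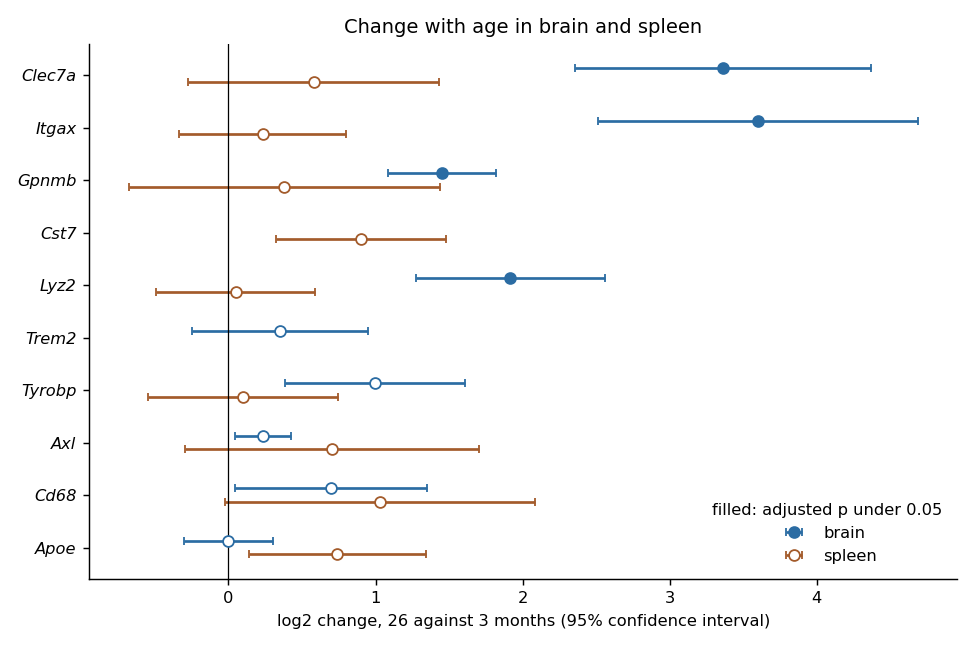
Log2 change from 3 to 26 months with its 95% confidence interval for each gene, in brain (blue) and spleen (brown), filled where the adjusted p is under 0.05. Filled points are Clec7a, Itgax, Gpnmb and Lyz2 in brain, from 1.45 to 3.60, and no spleen point is filled. Cst7 in brain and Trem2 in spleen were not tested and have no point.

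In the mTOR table, spleens of the mTOR genotype had lower Clec7a, Cst7 and Lyz2. Clec7a had 1285, 1734 and 1001 in young WT and 705, 854 and 643 in young mTOR spleens. In the old ones it had 1814, 1024 and 1369.8 in WT and 858, 881 and 612 in mTOR. Every mTOR spleen was below every WT spleen at each age, which held for 3.78% of all tested genes (11.8% at 5 months and 10.1% in old animals), and the log2 difference averaged over age was -0.83 (SE 0.16, adjusted p = 0.0094, limma). Cst7 had 92.0, 121 and 127 against 74.5, 66.8 and 73.1 in young spleens and 121, 239.8 and 117 against 76.6, 87.8 and 101 in old ones. Cst7 was another of that 3.78% of genes with no overlap at either age, with a difference of -0.70 (SE 0.18, adjusted p = 0.032). Lyz2 had 4397, 4425 and 6661 in young WT and 3562, 3434 and 4769 in young mTOR spleens, which overlap. In the old ones it had 4862, 5400.0 and 5266 against 3659, 4084 and 3424, which do not (10.1% of genes at that age), and the difference was -0.43 (SE 0.12, adjusted p = 0.046).

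These 3 of 9 tested genes were called lower. Of all 15512 tested genes 7.93% were called, 3.2% higher and 4.73% lower. The median of the 9 was -0.35 beside 0.01 for all genes. Gpnmb differed by -0.91 (adjusted p = 0.069), Cd68 by -0.35 (0.18), Itgax by -0.28 (0.25), Tyrobp by -0.16 (0.46), Apoe by -0.13 (0.58) and Axl by 0.27 (0.25), none of them called. Trem2 was not tested, with 1 library at a value of 10. At 5 months and in the old animals alone none of the 9 was called, with 1.83% and 1.81% of genes called, and Clec7a had adjusted p of 0.083 and 0.10. Old against young animals, within either genotype or averaged over both, gave no called member either. Hardly any gene was called there by limma: 0 in WT, 0.00645% of all tested genes in mTOR and 0.0258% averaged over both. The test of whether the genotype difference changed with age called no gene (850 with an unadjusted p under 0.05, and none by edgeR or DESeq2). Clec7a kept its call without any 1 of the 12 libraries. Cst7 kept it in 5 of the 12 cases, with differences of -0.66 to -0.72 where it was lost, and Lyz2 in 3, with -0.33 to -0.47. Lyz2 also lost it with equal library totals (adjusted p = 0.10) and with no filter (0.071). Gpnmb was called without old WT replicate 3, at -1.10 (adjusted p = 0.032), or old mTOR replicate 2, at -1.06 (0.045). Of 22 tested genes on the list of other disease-associated genes, 9 were called lower and 1 higher (median -0.32). Among 17 tested pan-myeloid genes 3 were called lower (median -0.28), and among 8 dendritic cell genes 3 were called higher (median 0.38). Their part in the values of Clec7a, Cst7 and Lyz2 was not tested.

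**Figure D5:**
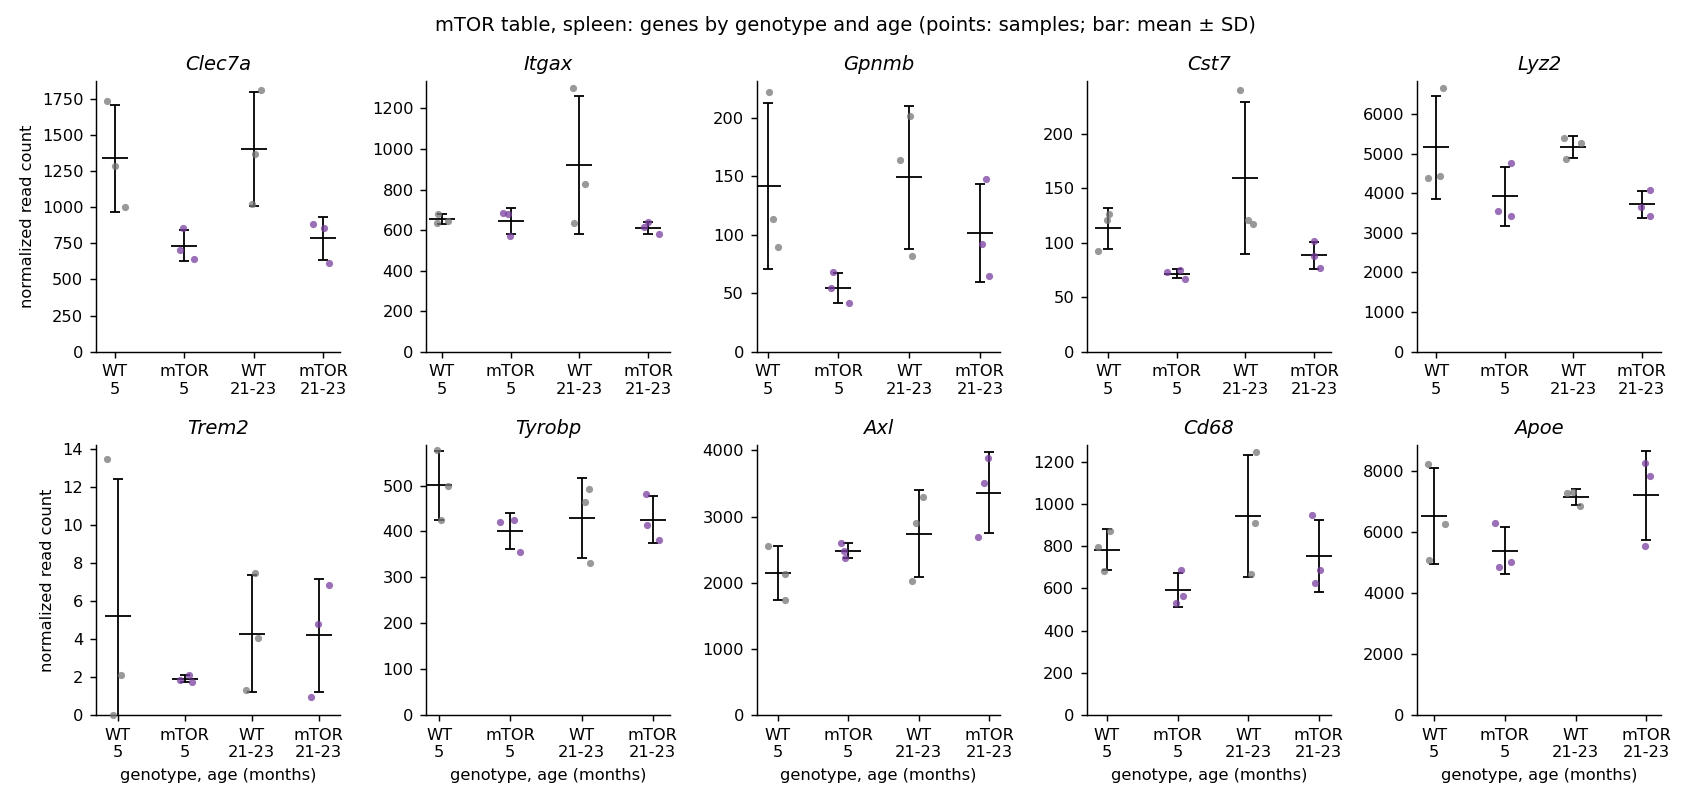
Normalized read count of each gene in the 12 spleens of the mTOR table, grouped by genotype (WT grey, mTOR purple) and age in months, 1 point per animal and bars for mean ± SD. For Clec7a the 6 mTOR spleens lie between 612 and 881 and the 6 WT spleens between 1001 and 1814.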

How the data were processed

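Each deposited signal value is a normalized count, made by the authors from the reads of 1 gene symbol and 1 size factor per library. Multiplying back gave whole reads, within 0.01 of a read, for 100% of values. The submitters' processing notes list, with no order or role, bcl2fastq 2.20 and cutadapt, as well as HISAT2 2.1.0 with SAMtools, DESeq2 with R 3.5.1, and the build GRCm38. The counting tool and its use of strand are not given in the sources used here. Per the labels' protocols, total RNA of frozen tissue went into TruSeq libraries.

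Tests used limma 3.58.1 (R 4.3.3) on log2(value + 1) with its trended prior, 1 mean per age or per genotype and age, 2-sided moderated tests and Benjamini-Hochberg adjustment over all tested genes of a contrast. Titles give each animal a code, so replicates are separate animals, and brain and spleen were paired by it. Animals of 21 and 23 months were pooled. Near-identical brain pairs were found from the variance between libraries of genes with 5 to 50 reads over that of read sampling, which was 0.484 and 0.591 for the averaged pairs and at least 1.26 for all other brain pairs. As alternatives, the whole reads went into edgeR 4.0.16 and DESeq2 1.42.0. The limma fits were tested on simulated data with 200 genes changed 2-fold. At 26 against 3 months 79% of these were called in brain and 38% in spleen, and for mTOR against WT 71.5%. Of the calls 0.63%, 8.4% and 1.4% were false, in the same order.

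Genes named beyond the 10 are called members of the lists, up to 6 by smallest p, and the first 2 genes of each marker list. One such gene is not reported here. The 10 genes, the lists and the tests were chosen with earlier results of these data known. Exon lengths and positions are from GENCODE M21, and plots were made in Python 3.11.15 with matplotlib 3.10.9.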

Additional observations from a re-analysis of the deposited data

Results flagged for a closer look

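Of 120 groups of samples, 1 for each gene at each age in brain and spleen, 6 had 1 sample farther from the rest than Dixon's 95% critical value allows, and chance gives about 1 in 20. In brain this was Cd68 at 5 months, where replicate 4 had 3.89. In spleen, replicate 5 at 3 months was far above the others for Clec7a at 707, Axl at 2948 and Apoe at 15059. Gpnmb in spleen was low in replicate 2 at 20 months, at 13.5. Trem2 in spleen at 8 months was 1.19 in replicate 4 and 0 in the other spleens of that age.

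The age change differed between brain and spleen in the paired test, with brain minus spleen differences at 26 against 3 months of 2.78 for Clec7a (called in 4 of 12 cases with an animal left out), 3.37 for Itgax and 1.87 for Lyz2, and of 2.75 for Itgax at 20 against 3 months. Of the 2 alternative settings run at 26 months, Clec7a was called in 0, at 1.33 to 1.98, and Itgax and Lyz2 in 1 each.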

How the results depend on the processing

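The calls of Clec7a, Itgax, Gpnmb and Lyz2 in brain at 26 against 3 months held without each of the 12 libraries in turn, with log2 changes of 3.06 to 3.53, 3.37 to 3.82, 1.33 to 1.54 and 1.70 to 2.11. They also held under each alternative of test, scaling, pseudocount and depth. With a mean value of at least 20 required, 2 were called, since Clec7a and Itgax were then not tested. At 20 months DESeq2 called 4 where limma called 2. DESeq2 called 169 genes in all at 26 months and 82 at 20 months (edgeR 119 and 41, limma 103 and 27). In spleen the 3 tools called 60, 707 and 896 genes at 26 months (limma, edgeR, DESeq2).

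In spleen at 26 against 3 months 1 member was called without libraries under 5000000 reads, and 0 to 1 with a library left out. At 20 against 3 months 1 was called with DESeq2, which called 2476 genes in all, or with a mean of at least 20. With no filter the 1 called was Trem2, at 2.29 (limma adjusted p = 0.011), which was otherwise not tested. With a library left out 0 to 3 were called. For mTOR against WT, leaving out a library left 1 to 3 members called. At 5 months DESeq2 called 2 members, among 908 genes in all, and 0 to 1 were called with a library left out. In old animals DESeq2 called 1 member, among 802 genes in all. For brain minus spleen at 26 months 0 were called without shallow libraries, and 1 to 3 with 1 of the 12 animals of the 3- or 26-month groups left out. At 20 months 1 to 2 were called with 1 of 14 animals left out. The share of all genes called in fits with a library or animal left out is not given, so such member counts cannot be weighed. Leaving out 3-month animals, and 20-month animals, from this comparison was added after seeing the data.

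Signs turned for these values. Apoe in brain at 26 months, -0.00 as reported, was 0.0252 with edgeR, 0.0202 with DESeq2, 0.00257 with TMM and 0.0291 with equal totals, and ran from -0.0799 to 0.141 with a library left out. Trem2 and Axl were -0.26 and -0.38 relative to pan-myeloid genes, where Apoe was -0.62, and Trem2 at 20 months ran from -0.235 to 0.0148 with a library left out. In spleen at 26 months such ranges were -0.103 to 0.174 for Lyz2 and -0.133 to 0.453 for Tyrobp. For brain minus spleen at 26 months Cd68 ran from -0.763 to 0.0460 with an animal left out. At 20 months Clec7a, 0.90 as reported, was -0.0751 with a pseudocount of 8, and Tyrobp, 0.15 as reported, was -0.0457 with it and -0.37 without shallow libraries. With an animal left out at 20 months Gpnmb ran from -0.595 to 0.000770 and Tyrobp from -0.0542 to 0.384. The cause of these shifts was not tested.

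Between ages and between genotypes no paired analysis was possible, because the replicate numbers were given in accession order and these groups share no animals. Brain and spleen of the same animal were paired in the brain minus spleen comparison. No library of the mTOR table was under 5000000 reads, so that alternative was not run there. Few reads limit Cst7, Itgax and Clec7a in young brains.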

Other observations

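The brain genes whose level ran most like the mean z-score of the 10 genes, by Pearson r over 43 samples and among 12850 genes, were C4b (0.88), Serpina3n (0.87), Lgals3bp (0.85), C1qb (0.84), Mpeg1 (0.82), H2-D1 (0.81), Vim (0.81), H2-K1 (0.79), C1qa (0.79) and A2m (0.78). These include complement genes (C4b, C1qa, C1qb), class I antigen presentation genes (H2-D1, H2-K1) and Serpina3n and Vim, which reactive astrocytes are known to raise. C4b stood at 69.2 ± 15.7 at 3 months (n = 7) and 520 ± 178 at 26 months (n = 5), Serpina3n at 51.7 ± 11.3 and 209.9 ± 138, and Mpeg1 at 153 ± 36.9 and 277.9 ± 43.9. The samples share age groups and library depth with the 10 genes, so r is a description only.

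With the mean of each age removed, another set came out: Plpp3 (0.81), Arsa (0.80), Sqstm1 (0.77), D10Jhu81e (0.77), Clu (0.77), Igsf8 (0.77), Cops5 (0.77), Acot7 (0.76), Kif1c (0.76) and Eef1a1 (0.76). None of the first 10 is among them. Of the 10 genes themselves, each against the mean of the other 9, Itgax went from 0.79 to 0.48 when age means were removed, Clec7a from 0.64 to 0.11 and Lyz2 from 0.69 to 0.25. Apoe went from 0.44 to 0.56 and Trem2 from 0.39 to 0.39.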
